A study of Mus musculus with 9 samples.

Results

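The platelet-derived growth factor (PDGF) system and 3 pericyte markers were followed in cultured mouse adipose-derived stem cells (ASCs) from 3 fat depots. The genes were the ligands Pdgfa, Pdgfb, Pdgfc and Pdgfd, the receptors Pdgfra and Pdgfrb, and the mural cell markers Cspg4, Rgs5 and Mcam. They were taken by gene symbol from a table of reads per gene, 9 of the 54532 genes listed. The rule that picks them uses symbols and no measured value, but the list was chosen with earlier results of these data known. The study set ASCs of perivascular adipose tissue (PVASCs), which surrounds arteries, beside ASCs of abdominal (Ab-ASCs) and subcutaneous adipose tissue (Sub-ASCs), to ask how they differ in transcription. Each depot was represented by 3 bulk mRNA libraries, 9 in all. All cells came from C57BL/6 mice, were grown in the same kind of stem cell medium with serum, leukemia inhibitory factor and fibroblast growth factor, and received no treatment or genetic change. The age and sex of the mice behind these libraries, and the tissue pieces pooled into each culture, were not given in the sources used here.

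PDGF ligands are secreted dimers that bind a pair of receptor tyrosine kinases on mesenchymal cells. PDGF-A and PDGF-C chains act mainly through receptor alpha, PDGF-D acts mainly through receptor beta, and PDGF-B binds both. PDGF-C and PDGF-D are released in a latent form and are activated by extracellular proteases. In vessels, PDGF-B from endothelial cells recruits pericytes and smooth muscle cells that carry receptor beta, and in fat, receptor alpha marks stromal cells that include adipocyte progenitors. Pericytes are usually recognized by several markers together, because each of them is also found on other mesenchymal, neural or endothelial cells.

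The libraries held between 20524173 and 29881036 assigned reads. A count of 3 reads, the upper limit that a count of 0 allows, was worth 0.0917 to 0.161 in CPM, the counts scaled to a common library size, by counting error only. The biological coefficient of variation was 5.69% in Sub-ASCs, 12.5% in Ab-ASCs and 3.85% in PVASCs. Ab-ASC replicate 1 stood apart from the other Ab-ASC libraries, with a chi-square per gene of 29.4 and 18.5 against them, where those 2 libraries gave 4.26 against each other. The labels do not say whether the replicates were separate mice or cultures, so the p-values measure only the spread between these libraries. No batch is named, and a difference between depots cannot be told apart from a difference in when or how the cultures were prepared. The 12 listed stromal and ASC genes summed to 31068 to 31674 CPM in Sub-ASCs, 13696 to 14330 CPM in Ab-ASCs and 10424 to 10859 CPM in PVASCs. Collagen genes and Vim made up much of these sums, and some listed progenitor genes were low outside Sub-ASCs, such as Pi16 at 854 CPM in Sub-ASCs, 7.91 CPM in Ab-ASCs and 5.35 CPM in PVASCs.

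All 9 genes passed the filter on low counts, and all 9 differed among the depots by the quasi-likelihood test of edgeR at an adjusted p of 0.05. That is a common outcome here, since 84.6% of the 16526 genes tested did so, and the count of members called is therefore not in itself a result. What set the members apart from each other was the depot in which each was highest and the size of the difference. A gene was taken as highest in a depot when it was called higher there against each of the other groups. By that rule Pdgfa, Pdgfb, Cspg4, Rgs5 and Mcam, 5 of the 9, were highest in PVASCs, Pdgfc alone in Ab-ASCs, and the 3 members Pdgfd, Pdgfra and Pdgfrb in Sub-ASCs. The place of Pdgfa rests on a 1.16-fold difference from Ab-ASCs that was lost in 5 alternatives, and without it 4 members were highest in PVASCs. Among all genes tested, 28.7% were highest in Sub-ASCs, 20.9% in Ab-ASCs and 10.2% in PVASCs.

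**Figure D1:**
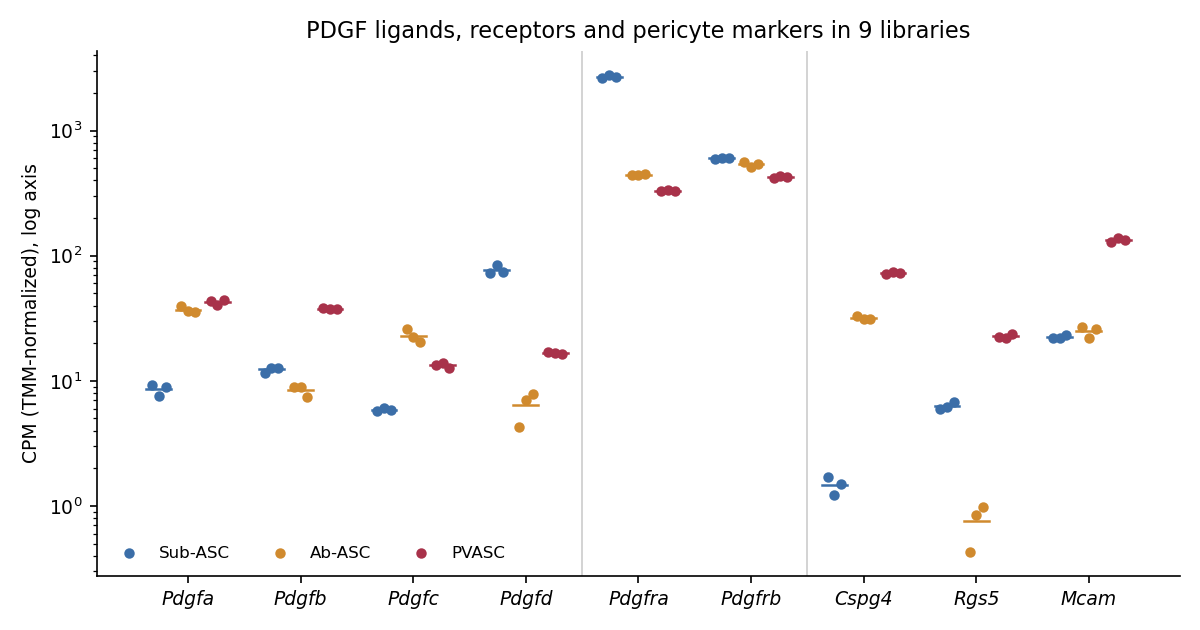
Level of each of the 9 genes in each of the 9 libraries, in CPM on a log axis, with points for libraries and bars for the group means (n = 3 per group). Cspg4, Rgs5 and Mcam are highest in the 3 PVASC libraries, Pdgfra and Pdgfd in the 3 Sub-ASC libraries, and Pdgfrb lies within a narrow band from 422 to 609 CPM.

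Sequence upstream of 4 member genes is shown because these members had the widest differences between depots. The stretches are RefSeq sequence on build GRCm38.p6, plus strand, 5′ to 3′, and run up to the base before the RefSeq start of the gene, or for Cspg4 before the earlier start given in the count table. Distances are counted from the RefSeq start. Capitals mark matches, on either strand, to 4 short promoter motifs that were searched. These were the TATA box (TATAAA), the CCAAT box (by the letters of its name), the GC box (GGGCGG) and the CArG box, the element bound by serum response factor. No motif overlapped another in the stretches shown. The stretch of Pdgfd, at chr9:6168236-6168485, holds the TATA box 160 bases before the start.
Pdgfd: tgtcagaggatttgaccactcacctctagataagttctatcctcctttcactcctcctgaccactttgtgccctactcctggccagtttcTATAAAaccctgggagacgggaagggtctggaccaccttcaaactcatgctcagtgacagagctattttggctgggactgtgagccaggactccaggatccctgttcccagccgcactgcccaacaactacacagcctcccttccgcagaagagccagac
The stretch of Pdgfra, at chr5:75152001-75152250, holds none of the 4 motifs.
Pdgfra: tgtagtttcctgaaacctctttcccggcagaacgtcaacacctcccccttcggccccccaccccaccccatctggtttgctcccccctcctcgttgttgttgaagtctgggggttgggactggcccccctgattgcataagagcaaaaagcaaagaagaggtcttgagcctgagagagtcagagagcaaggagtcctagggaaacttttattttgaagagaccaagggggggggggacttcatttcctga
The stretch of Cspg4, at chr9:56864854-56865032, holds the GC box on the minus strand 120 and 85 bases before the start.
Cspg4: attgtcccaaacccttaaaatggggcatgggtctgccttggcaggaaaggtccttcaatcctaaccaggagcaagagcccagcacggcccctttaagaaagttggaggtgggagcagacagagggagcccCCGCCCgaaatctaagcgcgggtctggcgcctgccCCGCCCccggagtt
The stretch of Rgs5, at chr1:169655251-169655500, holds the CCAAT box on the minus strand 67 bases before the start.
Rgs5: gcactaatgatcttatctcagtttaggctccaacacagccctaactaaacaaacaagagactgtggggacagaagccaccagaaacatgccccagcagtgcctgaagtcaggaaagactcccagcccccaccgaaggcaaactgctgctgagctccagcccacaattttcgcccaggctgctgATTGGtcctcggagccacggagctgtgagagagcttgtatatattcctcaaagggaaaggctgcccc
These matches are common. Of 32841 RefSeq windows of 300 bases around gene starts, 13.6% held the TATA box, 37.4% the CCAAT box, 35.7% the GC box and 1.63% the CArG box. Windows were searched for 7 of the 9 members. No window was matched for Pdgfb, and Pdgfrb was left out of the search beforehand. In the other 3 members, the GC box occurred 1 time in the first Pdgfa window, 2 times in its second window and 5 times in the Mcam window, and the Pdgfc window held 1 CArG box. The GC content of the members' windows ran from 51% in Pdgfra to 73.3% in a window of Pdgfa, against a median of 52.7% over all windows. No binding or chromatin was measured, so the matches describe sequence only.

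The ligands did not share a pattern. Pdgfb was highest in PVASCs, Pdgfc in Ab-ASCs and Pdgfd in Sub-ASCs, and Pdgfa was low in Sub-ASCs and only 1.16-fold apart between the other depots. The largest difference of any ligand was that of Pdgfd, 12.0-fold lower in Ab-ASCs than in Sub-ASCs.

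Pdgfa (ENSMUSG00000025856, chromosome 5 from 138976014 to 138997370, minus strand) encodes the PDGF-A chain. Its level was 9.19, 7.55 and 8.89 CPM in Sub-ASC replicates 1 to 3, 39.6, 36.2 and 35.6 CPM in Ab-ASCs, and 43.7, 40.5 and 44.5 CPM in PVASCs. The Sub-ASC libraries were far below the rest, and the highest Ab-ASC library was just below the lowest PVASC library. Pdgfa was 5.03-fold above the Sub-ASC level in PVASCs (log2 fold change 2.33 ± 0.0860 SE, adjusted p = 1.03e-10) and 4.34-fold higher in Ab-ASCs than in Sub-ASCs (2.12 ± 0.0872, adjusted p = 2.85e-10). Between PVASCs and Ab-ASCs the difference was 1.16-fold (0.21 ± 0.0766, adjusted p = 0.0337). That call was lost when any of 4 libraries was left out, with an adjusted p of 0.0811 without Ab-ASC replicate 2, 0.123 without Ab-ASC replicate 3, 0.109 without PVASC replicate 1 and 0.121 without PVASC replicate 3. It was also lost with no filter on low counts, at an adjusted p of 0.0540. Of the 3119 exon bases of Pdgfa, 813 are shared with the antisense gene 6330403L08Rik, which measured 6.28 CPM in Sub-ASCs, 10.6 CPM in Ab-ASCs and 12.1 CPM in PVASCs. Without a stated strand setting, reads in the shared bases cannot be told apart.

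Pdgfb (ENSMUSG00000000489, chromosome 15 from 79995874 to 80014977, minus strand) encodes the PDGF-B chain, the ligand that acts on pericytes. It measured 11.6, 12.7 and 12.8 CPM in Sub-ASC replicates 1 to 3, 8.91, 8.85 and 7.36 CPM in Ab-ASCs, and 38.5, 37.4 and 37.2 CPM in PVASCs. All PVASC libraries were well above the others, and the Ab-ASC libraries lay below the Sub-ASC libraries with no overlap. The gene was 3.05-fold above the Sub-ASC level in PVASCs (log2 fold change 1.61 ± 0.0805 SE, adjusted p = 1.98e-09) and 4.51-fold higher than in Ab-ASCs (2.17 ± 0.0855, adjusted p = 1.09e-09). Ab-ASCs were below Sub-ASCs by a smaller margin (log2 fold change -0.56 ± 0.0909, adjusted p = 0.00011).

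Pdgfb is a gene that endothelial cells express strongly in vessels, and endothelial markers moved with it. Of 10 listed endothelial genes, 8 were highest in PVASCs, and the other 2, Tek and Cldn5, in Sub-ASCs, beside 10.2% and 28.7% of all genes. Their summed level was 219 to 232 CPM in Sub-ASC libraries, 75.8 to 77.2 CPM in Ab-ASC libraries and 887 to 890.4 CPM in PVASC libraries, with groups in the same order as for Pdgfb. The listed endothelial genes had reads in every group, but at uneven levels. VE-cadherin (Cdh5) measured 209 ± 1.90 CPM (SD, n = 3) in PVASCs, 46.5 ± 2.40 CPM in Sub-ASCs and 17.2 ± 0.529 CPM in Ab-ASCs. Tek measured 42.5 to 49.6 CPM in Sub-ASC libraries, 9.45 to 10.9 CPM in Ab-ASCs and 14.4 to 15.4 CPM in PVASCs. Cldn5 had 203 to 242 reads in Sub-ASC libraries, 15 to 27 in Ab-ASCs and 21 to 30 in PVASCs. Vwf, though highest in PVASCs, had only 60 to 92 reads there. Pecam1, which encodes CD31, measured 179.6 ± 2.26 CPM in PVASCs. The study describes its PVASCs as lacking CD31 protein by flow cytometry, an assay not analysed here. The part of endothelial RNA in the Pdgfb difference was not tested. In bulk libraries, more cells of a type and more RNA per cell cannot be told apart, here and in every comparison that follows.

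Pdgfc (ENSMUSG00000028019, chromosome 3 from 81036416 to 81214040, plus strand) encodes the PDGF-C chain, which needs removal of a CUB domain to become active. It measured 5.75, 6.09 and 5.83 CPM in Sub-ASC replicates 1 to 3, 26.04, 22.2 and 20.6 CPM in Ab-ASCs, and 13.3, 13.8 and 12.7 CPM in PVASCs. The groups did not overlap, and their order was Ab-ASCs, PVASCs, Sub-ASCs. Pdgfc was the only member with its highest level in Ab-ASCs. It was 3.88-fold higher in Ab-ASCs than in Sub-ASCs (log2 fold change 1.96 ± 0.102 SE, adjusted p = 2.9e-09), 1.73-fold higher in Ab-ASCs than in PVASCs (PVASCs minus Ab-ASCs -0.79 ± 0.0926, adjusted p = 1.96e-05) and 2.25-fold above the Sub-ASC level in PVASCs (1.17 ± 0.103, adjusted p = 5.01e-07).

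Pdgfd (ENSMUSG00000032006, chromosome 9 from 6168584 to 6378850, plus strand) encodes the PDGF-D chain, also secreted in latent form. It measured 72.9, 84.8 and 73.5 CPM in Sub-ASC replicates 1 to 3, 4.295, 7.02 and 7.80 CPM in Ab-ASCs, and 17.03, 16.8 and 16.35 CPM in PVASCs. The groups did not overlap, and the order of the depots ran opposite to that of Pdgfc. Pdgfd was 4.61-fold lower in PVASCs than in Sub-ASCs (log2 fold change -2.20 ± 0.128 SE, adjusted p = 8.18e-09), and the Ab-ASC level stood to the Sub-ASC level at -3.58 ± 0.146 on the log2 scale (adjusted p = 2.63e-10). Only 7.07% of the genes tested differed more than that between these groups. PVASCs were 2.59-fold above Ab-ASCs (1.37 ± 0.151, adjusted p = 1.09e-05). The lowest Ab-ASC value belonged to replicate 1, the library that stood apart, and without it the difference between PVASCs and Ab-ASCs was 1.17 on the log2 scale.

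The mixture of ligand transcripts therefore differed by depot. To compare genes of unequal length, levels were expressed as FPKM, read counts per length of gene and size of library, and each ligand was taken as a share of the 4. Pdgfd made up 78.0% ± 1.86 (SD, n = 3) of the ligand FPKM in Sub-ASCs, 9.97% ± 3.20 in Ab-ASCs and 17.3% ± 0.492 in PVASCs. Pdgfa was the most abundant ligand in the other depots, with 58.2% ± 1.25 in Ab-ASCs and 44.7% ± 1.46 in PVASCs, against 8.80% ± 1.40 in Sub-ASCs. Pdgfb reached 29.5% ± 0.491 in PVASCs, against 9.50% ± 0.538 in Sub-ASCs and 9.83% ± 0.767 in Ab-ASCs. Pdgfc reached 22.0% ± 1.79 in Ab-ASCs, against 8.49% ± 0.502 in PVASCs and 3.70% ± 0.118 in Sub-ASCs. The summed ligand level was 30.6 ± 1.96 FPKM in Sub-ASCs, 19.1 ± 0.469 FPKM in Ab-ASCs and 33.6 ± 0.846 FPKM in PVASCs, so that Sub-ASCs and PVASCs were closer in total than either was to Ab-ASCs, with a different main ligand. No test was made on these shares, which are sums of members tested above.

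**Figure D2:**
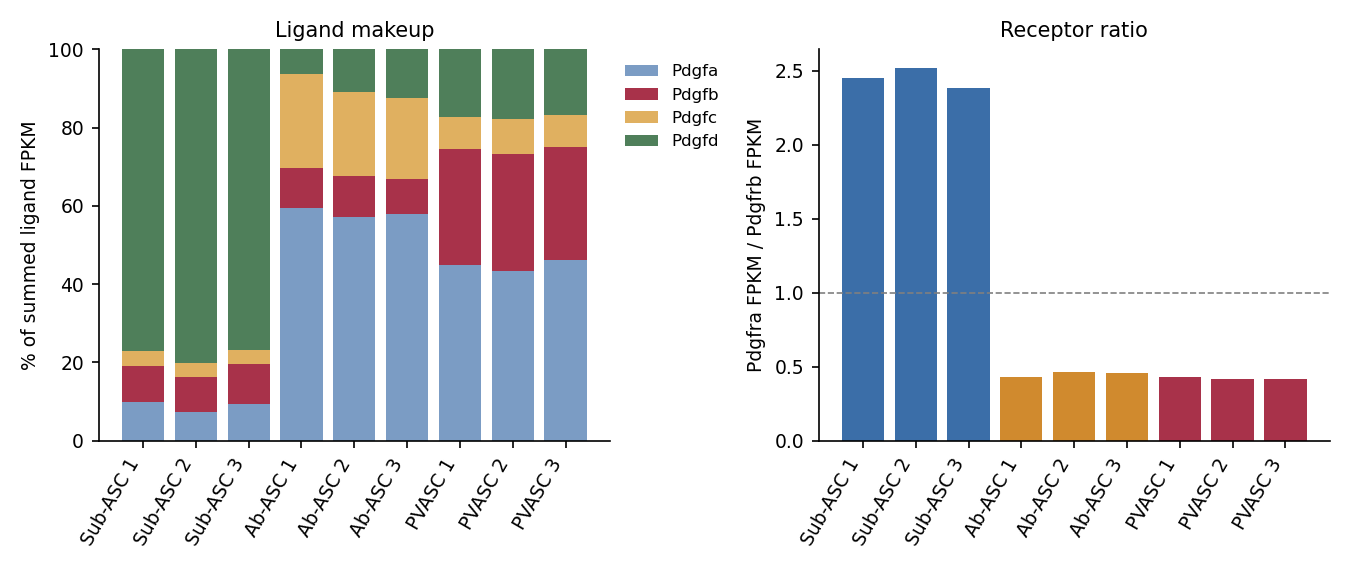
Left, share of each ligand in the summed FPKM of the 4 ligands in each library, in percent. Right, ratio of Pdgfra FPKM to Pdgfrb FPKM in each library, with a dashed line at 1. Pdgfd is the main ligand in the 3 Sub-ASC libraries (mean 78.0%) and Pdgfa in the others, and the receptor ratio lies above 1 in Sub-ASCs (2.39 to 2.52) and at 0.467 or less elsewhere.

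Both receptors were highest in Sub-ASCs and lowest in PVASCs, but by unlike amounts. Pdgfra was 8.17-fold lower in PVASCs and 6.11-fold lower in Ab-ASCs than in Sub-ASCs, and Pdgfrb differed by no more than 1.41-fold between any depots. The receptor that prevailed per length was alpha in Sub-ASCs and beta in the other groups.

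Pdgfra (ENSMUSG00000029231, chromosome 5 from 75152292 to 75198215, plus strand) encodes receptor alpha. It measured 2659, 2806 and 2662 CPM in Sub-ASC replicates 1 to 3, 441, 440.3 and 449 CPM in Ab-ASCs, and 332, 335 and 328 CPM in PVASCs. No groups overlapped, and the libraries of each depot were close to each other. The log2 fold change was -3.03 ± 0.0449 (SE, adjusted p = 4.48e-14) for PVASCs against Sub-ASCs, -2.61 ± 0.0442 (adjusted p = 1.12e-13) for Ab-ASCs against Sub-ASCs and -0.42 ± 0.0419 (adjusted p = 4.84e-06) for PVASCs against Ab-ASCs. Between PVASCs and Sub-ASCs, 9.3% of the genes tested differed more. Sub-ASCs held Pdgfra at 264 FPKM, rank 154 of 16588 protein-coding genes with reads, whereas it ranked 1164 of 16348 in Ab-ASCs and 1337 of 16909 in PVASCs. Of the 12 listed stromal genes, 8 were also highest in Sub-ASCs, beside 28.7% of all genes, while Thy1, Eng and Vim were highest in PVASCs and Col1a1 in Ab-ASCs. Among the 8 was Ly6a, which encodes the progenitor surface marker Sca-1, at 2049 ± 115 CPM (SD, n = 3) in Sub-ASCs, 21.8 ± 3.42 CPM in Ab-ASCs and 111 ± 4.45 CPM in PVASCs. Ly6a was higher in PVASCs than in Ab-ASCs (log2 fold change 2.36, adjusted p = 1.02e-09), opposite to Pdgfra. The part of these genes in the Pdgfra difference was not tested.

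Pdgfrb (ENSMUSG00000024620, chromosome 18 from 61045150 to 61085061, plus strand) encodes receptor beta, the receptor of pericytes and vascular smooth muscle cells. It measured 593, 608 and 609 CPM in Sub-ASC replicates 1 to 3, 562, 515 and 537 CPM in Ab-ASCs, and 422, 436 and 429.8 CPM in PVASCs. The groups did not overlap, yet their means were close. The log2 fold change was -0.49 ± 0.0468 (SE, adjusted p = 1.05e-06) for PVASCs against Sub-ASCs, -0.33 ± 0.0468 (adjusted p = 9.93e-05) for PVASCs against Ab-ASCs and -0.17 ± 0.0468 (adjusted p = 0.00646) for Ab-ASCs against Sub-ASCs. Among the genes tested, 56%, 56.3% and 87.2% differed more in these 3 comparisons. Pdgfrb was thus among the more even members, at 108 FPKM in Sub-ASCs, 91.6 FPKM in Ab-ASCs and 85.5 FPKM in PVASCs.

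The ratio of Pdgfra to Pdgfrb in FPKM gives the balance of receptors within each library. It was 2.45, 2.52 and 2.39 in Sub-ASC replicates 1 to 3, 0.429, 0.467 and 0.457 in Ab-ASCs, and 0.431, 0.419 and 0.417 in PVASCs. All Sub-ASC libraries were above 1 and all others below it, and the lowest Ab-ASC value lay within the PVASC range. An exact two-sided permutation test on the log2 ratio over the 3 groups gave p = 0.00714, where 0.00357 is the smallest p that this design allows. When libraries were permuted only within replicate numbers, the exact p was 0.0556. Pairs of groups were compared by exact permutation as well, with p = 0.1 for PVASCs and for Ab-ASCs against Sub-ASCs and p = 0.2 for PVASCs against Ab-ASCs, in a design that cannot go below 0.1. Summed receptor FPKM exceeded summed ligand FPKM 12.2 ± 0.450 times (SD, n = 3) in Sub-ASCs, 6.97 ± 0.242 times in Ab-ASCs and 3.63 ± 0.125 times in PVASCs.

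The 3 pericyte markers were all highest in PVASCs but did not share the order of the other depots. Pdgfrb, which pericytes also carry, went the other way. It was lowest in PVASCs, at 429 CPM against 603 CPM in Sub-ASCs and 538 CPM in Ab-ASCs. Cspg4 was lowest in Sub-ASCs, Rgs5 was lowest in Ab-ASCs, and Mcam was at a similar level in both.

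Cspg4 (ENSMUSG00000032911, chromosome 9 from 56865033 to 56899870, plus strand) encodes the proteoglycan NG2, found on pericytes and on oligodendrocyte precursors. It measured 1.72, 1.22 and 1.49 CPM in Sub-ASC replicates 1 to 3, from 40, 31 and 39 reads, 33.0, 31.2 and 31.4 CPM in Ab-ASCs, and 71.3, 74.3 and 72.2 CPM in PVASCs. The groups were far apart, with Sub-ASCs low, Ab-ASCs intermediate and PVASCs high. Cspg4 was 49.3-fold above the Sub-ASC level in PVASCs (log2 fold change 5.62 ± 0.0954 SE, adjusted p = 1.09e-13), more than any other member in any comparison, and 2.63% of the genes tested differed more. It was 21.6-fold higher in Ab-ASCs than in Sub-ASCs (4.43 ± 0.0986, adjusted p = 9.24e-13) and 2.28-fold higher in PVASCs than in Ab-ASCs (1.19 ± 0.0666, adjusted p = 2.57e-08). Genes of glial lineages that can express Cspg4 were low but highest in PVASCs. Of 10 such genes, 6 could be tested and 5 of these were highest in PVASCs, beside 10.2% of all genes, while Mbp was highest in Sub-ASCs. The list summed to 13.7 to 14.8 CPM in Sub-ASCs, 4.22 to 5.08 CPM in Ab-ASCs and 42.1 to 47.5 CPM in PVASCs. Sox10, which defines these lineages, measured 11.9 ± 0.946 CPM (SD, n = 3) in PVASCs, 0.638 CPM in Sub-ASCs and 0.253 CPM in Ab-ASCs, and Olig2 had 0 reads in all 9 libraries. The glial genes were lower in Ab-ASCs than in Sub-ASCs, the reverse of Cspg4, and their part in the PVASC level was not tested.

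Rgs5 (ENSMUSG00000026678, chromosome 1 from 169655501 to 169695813, plus strand) encodes a regulator of G-protein signaling that is abundant in pericytes. It measured 5.92, 6.17 and 6.71 CPM in Sub-ASC replicates 1 to 3, 0.430, 0.845 and 0.981 CPM in Ab-ASCs, from 8, 19 and 22 reads, and 22.4, 21.9 and 23.5 CPM in PVASCs. Every Ab-ASC library was below every Sub-ASC library, and every PVASC library was above both. Rgs5 was 29.2-fold higher in PVASCs than in Ab-ASCs (log2 fold change 4.87 ± 0.160 SE, adjusted p = 2.4e-10), rank 124 among the 16526 genes by size of change, and 3.60-fold above the Sub-ASC level in PVASCs (1.85 ± 0.112, adjusted p = 1.26e-08). Between Ab-ASCs and Sub-ASCs it fell by 3.02 on the log2 scale (SE 0.184, adjusted p = 1.26e-08). Ab-ASC replicate 1 was again the lowest library, and without it the difference between PVASCs and Ab-ASCs was 4.62 on the log2 scale. The summed endothelial and glial lists had the depots in the same order as Rgs5, and their part in its level was not tested.

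Mcam (ENSMUSG00000032135, chromosome 9 from 44134469 to 44142727, plus strand) encodes CD146, an adhesion molecule of pericytes, smooth muscle and endothelium. It measured 22.02, 21.8 and 23.2 CPM in Sub-ASC replicates 1 to 3, 26.8, 22.05 and 25.9 CPM in Ab-ASCs, and 129.9, 139 and 133 CPM in PVASCs. The PVASC libraries were far above the rest, and the ranges of Sub-ASCs and Ab-ASCs overlapped. Mcam was 5.99-fold above the Sub-ASC level in PVASCs (log2 fold change 2.58 ± 0.0757 SE, adjusted p = 1.19e-11) and 5.38-fold higher than in Ab-ASCs (2.43 ± 0.0756, adjusted p = 1.59e-10). The difference between Ab-ASCs and Sub-ASCs, 0.16 ± 0.0776, did not pass the test (adjusted p = 0.0874), but did so without Ab-ASC replicate 2, at 0.245 with an adjusted p of 0.00616. Per length, Mcam was the most abundant of the 3 markers in every depot, at 43.7 FPKM in PVASCs, where Cspg4 had 6.64 FPKM and Rgs5 5.43 FPKM. The endothelial genes that moved with Pdgfb were ordered differently from Mcam outside PVASCs, being lower in Ab-ASCs than in Sub-ASCs, and their part in the PVASC level of Mcam was not tested.

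**Figure D3:**
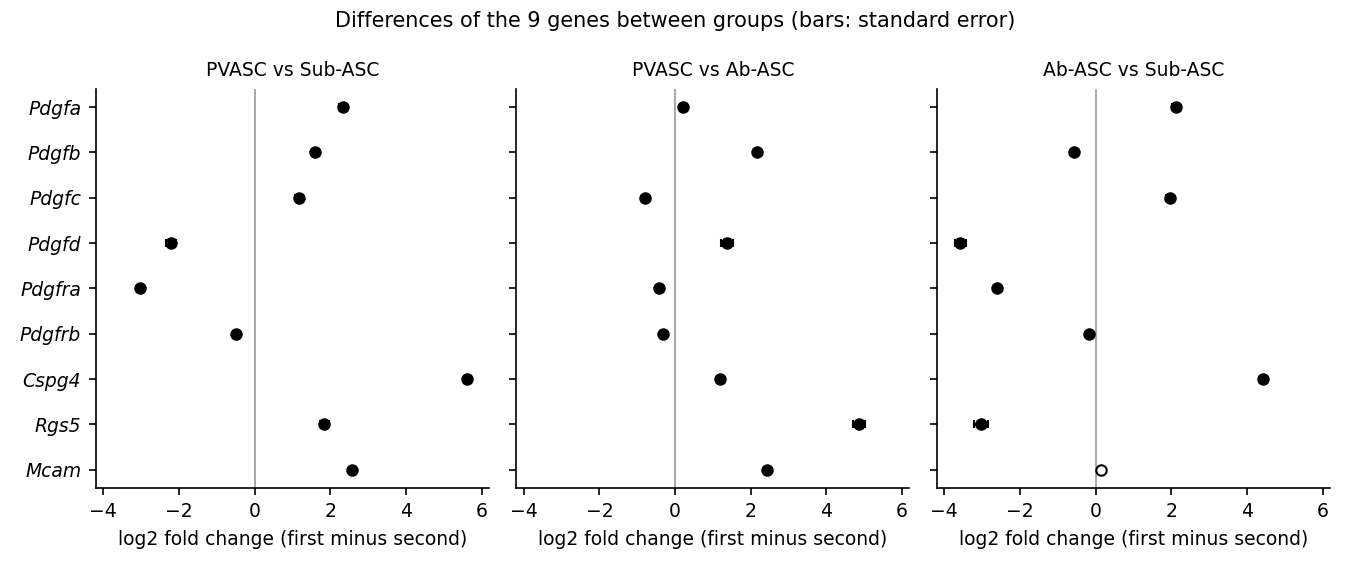
Log2 fold change of each of the 9 genes in the 3 pairwise comparisons, with bars for the SE (n = 3 libraries per group). Filled points passed an adjusted p of 0.05 and open points did not. Cspg4 reaches 5.62 against Sub-ASCs, Rgs5 4.87 against Ab-ASCs, and Mcam between Ab-ASCs and Sub-ASCs is the 1 open point.

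By comparison, PVASCs differed from Sub-ASCs in 9 of 9 members, 6 higher and 3 lower, where 70.4% of all genes were called, 34.7% higher and 35.7% lower. The group ranges did not overlap in 9 of 9 members, against 77.3% of all genes. The median log2 fold change of the members was 1.61, against -0.01 over all genes tested. PVASCs differed from Ab-ASCs in 9 of 9 members, 6 higher and 3 lower, where 56.9% of all genes were called, 24.7% higher and 32.1% lower, and the median was 1.19 against -0.06. Ranges were apart in 9 of 9 members, against 63.9% of all genes. When a change of at least 1 on the log2 scale was also required, 5 members were called between PVASCs and Ab-ASCs, all of them higher. Under that minimum 15.4% of all genes were called, 10.1% higher and 5.31% lower. Ab-ASCs differed from Sub-ASCs in 8 of 9 members, 3 higher and 5 lower, where 75.3% of all genes were called, 37% higher and 38.3% lower, and the median was -0.17 against -0.03. Ranges were apart in 8 of 9 members, against 76.5% of all genes. All but Mcam, 8 members, were called in all 3 comparisons, as were 35.5% of all genes. These comparisons share their groups, so that their values are not independent of each other.

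A wider list of 20 pericyte genes did not follow Cspg4, Rgs5 and Mcam as a whole. Of the 18 that could be tested, 10 or 55.6% were highest in Sub-ASCs, 4 or 22.2% in PVASCs and 3 or 16.7% in Ab-ASCs, where the shares over all genes were 28.7%, 10.2% and 20.9%. Between PVASCs and Sub-ASCs, 6 were higher, 10 lower and 2 not called, with a median log2 fold change of -0.63, where 34.7% of all genes were higher and 35.7% lower. Between PVASCs and Ab-ASCs, 7 were higher, 7 lower and 4 not called, with a median of -0.25, beside 24.7% and 32.1% of all genes. Between Ab-ASCs and Sub-ASCs 3 were higher, 13 lower and 2 not called, with a median of -1.25, beside 37% and 38.3% of all genes. Higd1b and Atp13a5 had too few reads to be tested.

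The pericyte genes highest in Sub-ASCs included channel, protease and matrix genes. Abcc9, a subunit of the ATP-sensitive potassium channel, measured 103 ± 4.95 CPM (SD, n = 3) in Sub-ASCs, from 2387, 2745 and 2570 reads, but 0.490 ± 0.204 CPM in Ab-ASCs and 0.502 ± 0.0617 CPM in PVASCs. Anpep, the aminopeptidase CD13, measured 294 ± 11.3 CPM in Sub-ASCs, 23.4 ± 2.41 CPM in Ab-ASCs and 13.5 ± 0.502 CPM in PVASCs. Vtn, which encodes vitronectin, measured 11.4 ± 0.202 CPM in Sub-ASCs and had at most 3 reads in any library of the other groups. These 3 genes put the Sub-ASC libraries high and the others low or near 0, the reverse of Cspg4.

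The genes highest in PVASCs beside Rgs5 and Mcam included Gja4, a gap junction gene of arteries, at 4.04 ± 0.664 CPM (SD, n = 3) against 0.457 CPM in Sub-ASCs and 0.550 CPM in Ab-ASCs. Heyl, a target of Notch signaling, measured 5.01 ± 0.179 CPM in PVASCs, 1.30 CPM in Sub-ASCs and 0.729 CPM in Ab-ASCs. Notch3, a receptor of mural cells that was picked after its values were seen, measured 39.3 ± 2.19 CPM in PVASCs, 24.8 ± 0.575 CPM in Sub-ASCs and 9.51 ± 0.607 CPM in Ab-ASCs. For Heyl and Notch3 the order of the depots was that of Rgs5. Cd248, endosialin, differed less, at 286 CPM in PVASCs, 235 CPM in Sub-ASCs and 199 CPM in Ab-ASCs.

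The genes highest in Ab-ASCs were Foxs1, Des and S1pr3. Foxs1, a forkhead factor, measured 66.3 ± 3.95 CPM (SD, n = 3) in Ab-ASCs, 28.0 ± 1.68 CPM in PVASCs and 0.780 CPM in Sub-ASCs, and Des, the muscle filament gene desmin, 69.9 ± 5.48 CPM, 22.4 CPM and 5.26 CPM. S1pr3, a receptor for sphingosine phosphate, had another order, at 258 CPM in Ab-ASCs, 196 CPM in Sub-ASCs and 179.9 CPM in PVASCs. The summed smooth muscle genes followed the order of Foxs1 and Des. Of 9 tested, 8 were highest in Ab-ASCs, beside 20.9% of all genes, and the 10 listed genes summed to 124 to 127 CPM in Sub-ASCs, 5046 to 6183 CPM in Ab-ASCs and 2998 to 3148 CPM in PVASCs. Acta2, the smooth muscle actin gene that mural cells also express, measured 4436 ± 537 CPM in Ab-ASCs, 2505 ± 80.3 CPM in PVASCs and 52.7 ± 2.91 CPM in Sub-ASCs. Cspg4 shared the low Sub-ASC level of this list, but not its order between Ab-ASCs and PVASCs, and the part of smooth muscle RNA in any member was not tested.

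**Figure D4:**
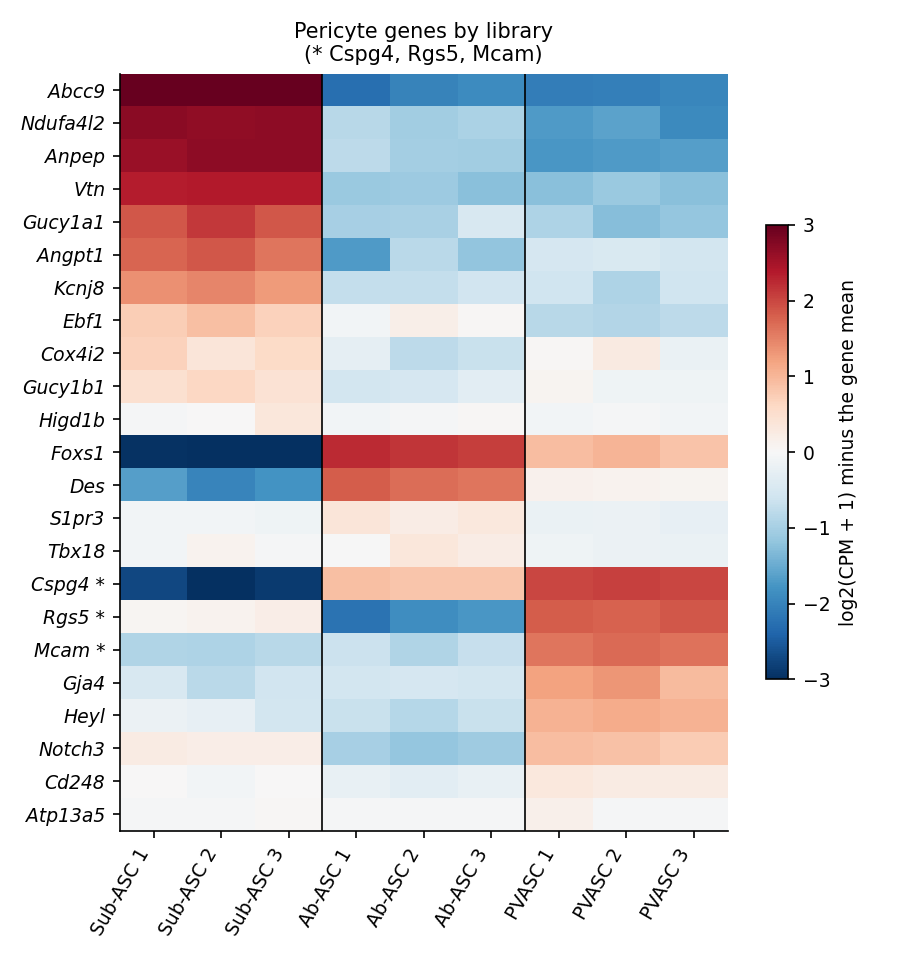
Heat map of the 20 wider pericyte genes with Cspg4, Rgs5 and Mcam (marked by *), in each of the 9 libraries, as log2(CPM + 1) minus the gene's mean, on a color scale that ends at -3 and 3. Genes are sorted by the group with the highest mean, and the upper block, with the 10 genes called highest in Sub-ASCs, is the largest.

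Other genes of PDGF signaling were counted over a list of 55, all of which could be tested. Between PVASCs and Sub-ASCs, 24 were higher, 24 lower and 7 not called, and between Ab-ASCs and Sub-ASCs 30 were higher, 19 lower and 6 not called. Between PVASCs and Ab-ASCs, 13 were higher, 30 lower and 12 not called, with a median log2 fold change of -0.26 against -0.06 over all genes. The shares of all genes higher and lower in these 3 comparisons were 34.7% and 35.7%, 37% and 38.3%, and 24.7% and 32.1%. Of the list, 22 genes or 40% were highest in Ab-ASCs, where 20.9% of all genes were. Sub-ASCs held 15 or 27.3% and PVASCs 6 or 10.9%, near the shares of 28.7% and 10.2% over all genes.

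Of 5 genes that activate or bind the ligands, 4 were higher in Ab-ASCs than in Sub-ASCs and 4 were lower in PVASCs than in Ab-ASCs, beside 37% and 32.1% of all genes. Between PVASCs and Sub-ASCs, 2 were higher, 2 lower and 1 not called, beside 34.7% and 35.7% of all genes. Thbs1, encoding thrombospondin-1, measured 549 ± 18.4 CPM (SD, n = 3) in Sub-ASCs, 10965 ± 134 CPM in Ab-ASCs and 7601 ± 62.0 CPM in PVASCs. Sparc, a matrix protein that binds PDGF-B, measured 5481 ± 451 CPM in Ab-ASCs, 2858 CPM in PVASCs and 2629 CPM in Sub-ASCs. Plat and Plau, picked after their values were seen because their proteases cleave latent PDGF-C and PDGF-D, were expressed in every depot. Plat measured 91.1 ± 1.62 CPM in Sub-ASCs, 124 ± 4.04 CPM in Ab-ASCs and 136 ± 1.93 CPM in PVASCs, and Plau 178 ± 10.8 CPM, 236 ± 15.4 CPM and 154 ± 8.69 CPM.

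Pdgfrl, a receptor-like gene, was lowest in PVASCs at 3.72 ± 0.411 CPM (SD, n = 3), against 12.5 ± 0.376 CPM in Sub-ASCs and 17.9 ± 1.04 CPM in Ab-ASCs. Lrp1, a co-receptor of receptor beta, followed the order of the receptors, at 5638 ± 74.5 CPM in Sub-ASCs, 3842 ± 67.1 CPM in Ab-ASCs and 3041 ± 14.0 CPM in PVASCs. Of 26 relay genes, 10 were higher and 12 lower in PVASCs than in Sub-ASCs, where 34.7% and 35.7% of all genes were. The largest rise among them was that of Pik3cb, a catalytic subunit of phosphoinositide 3-kinase, by 2.18 on the log2 scale. Between PVASCs and Ab-ASCs, 9 of the 26 were higher and 9 lower, where 24.7% and 32.1% of all genes were. Of 8 negative regulators, 2 were higher and 4 lower in each comparison. The shares of all genes ran from 24.7% to 37% higher and from 32.1% to 38.3% lower. Rasa1, a Ras inhibitor, rose by 1.11 against Sub-ASCs and by 1.16 against Ab-ASCs.

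Early response genes, which growth factors induce quickly, were mostly highest in Ab-ASCs, where 20.9% of all genes were highest. None of 13 was higher in PVASCs than in Ab-ASCs and 11 were lower, with a median log2 fold change of -0.74, and 11 were higher and 1 lower in Ab-ASCs than in Sub-ASCs, with a median of 1.02. Between PVASCs and Sub-ASCs, 9 were higher and 4 lower. Over all genes, 24.7% were higher and 32.1% lower in PVASCs than in Ab-ASCs. The shares were 37% higher and 38.3% lower in Ab-ASCs than in Sub-ASCs, and 34.7% and 35.7% in PVASCs than in Sub-ASCs. Egr2 measured 117 ± 2.76 CPM (SD, n = 3) in Ab-ASCs, 36.9 ± 0.637 CPM in PVASCs and 12.3 ± 0.772 CPM in Sub-ASCs, and the chemokine gene Cxcl1 was 61.6 ± 2.17 CPM, 5.16 ± 0.232 CPM and 34.3 ± 0.741 CPM. Jun was the exception that was lower in Ab-ASCs than in Sub-ASCs, at 97.2 CPM against 210 CPM. The medium held serum and a growth factor in all groups, and no ligand was added or blocked.

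**Figure D5:**
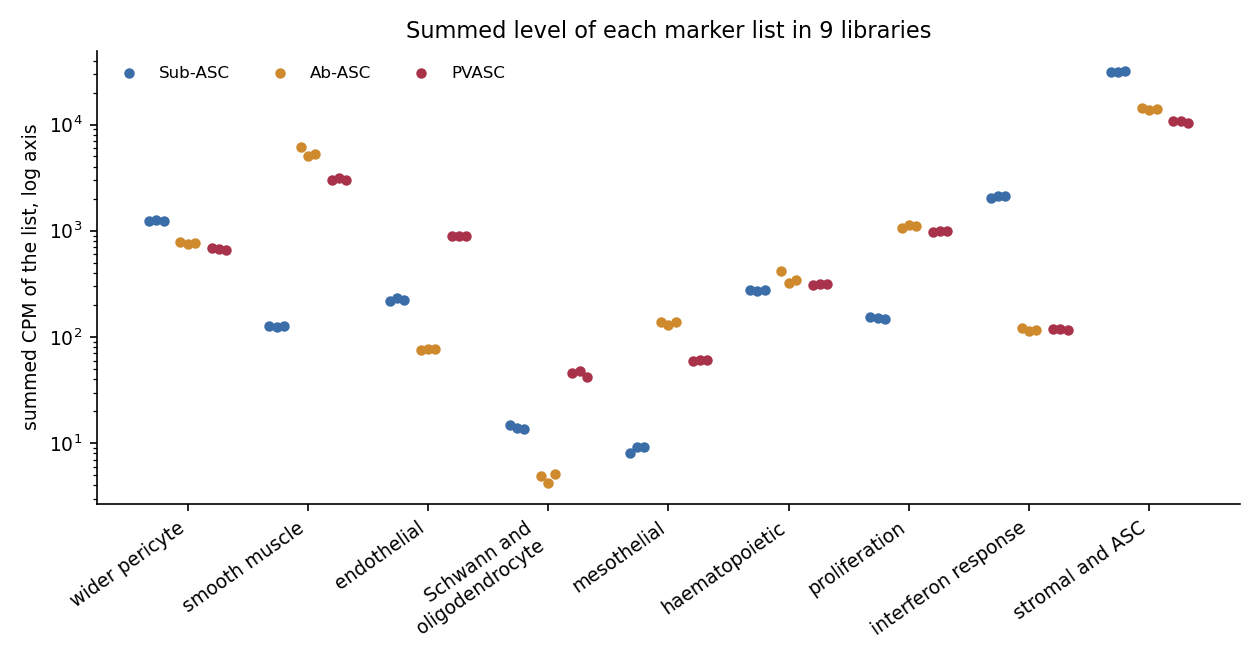
Summed CPM of each marker list in each of the 9 libraries, on a log axis. Endothelial and glial lists are highest in PVASCs, smooth muscle, mesothelial and proliferation lists in Ab-ASCs, and stromal, wider pericyte and interferon response lists in Sub-ASCs.

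Genes whose pattern over the 9 libraries was most like that of each member were found by the root mean square (RMS) difference of centered log2 CPM. For Pdgfa this was Spry1, an inhibitor of receptor tyrosine kinase signaling, at an RMS difference of 0.0653, followed by Hmga1b at 0.0671, whose reads are uncertain because it is nearly identical to Hmga1. For Pdgfb the nearest were Thy1 at 0.141 and Shank3 at 0.145. Thy1, which encodes the ASC surface marker CD90, measured 332 ± 11.4 CPM (SD, n = 3) in Sub-ASCs, 231 ± 24.2 CPM in Ab-ASCs and 883 ± 19.1 CPM in PVASCs.

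For Pdgfc the nearest genes were Haus7 at 0.0665 and Tagln2 at 0.0726, and Kif21a, at 0.134, was near Pdgfd. Pdgfra had Il17ra at 0.0663 and Rnase4 at 0.0759 beside it. Pdgfrb had the closest neighbors, Clip3 at 0.0274 and Dnaja2 at 0.0345. Cspg4 had Areg at 0.138 and Frzb at 0.235, and Rgs5 had Cd5l at 0.176 and Cyyr1 at 0.305. Some of these were near the level of 3 reads in 1 group, which limits the likeness there. Areg had 0.16 CPM in Sub-ASCs, and Cd5l 0.196 CPM and Cyyr1 0.172 CPM in Ab-ASCs. Mcam had Gm567 at 0.163, a gene with 0.45 CPM in PVASCs and 0 CPM in both other groups, where the prior count alone sets its value. Next was Flt4, the lymphatic endothelial receptor, at 0.172, which measured 9.71 CPM in Sub-ASCs, 8.78 CPM in Ab-ASCs and 54.0 CPM in PVASCs.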

How the data were processed

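Bulk mRNA libraries of cultured mouse ASCs were compared, 3 per depot, with groups taken from the labels. The authors deposited raw read counts per gene and library, with no normalization, and gave the position, biotype and length of every gene listed. The submitters' processing notes name CASAVA 1.8, Bowtie 0.12.2, featureCounts 1.5.0-p3 and the builds mm8 and mm10, without their roles. The strand setting was not given in the sources used here. The listed positions of all 9 members equal those of GENCODE M21 on GRCm38.

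From the counts, edgeR 4.0.16 (limma 3.58.1, R 4.3.3) was used with filterByExpr, which kept 16526 of 54532 genes, TMM scaling, all 9 libraries in 1 fit without covariates, and the quasi-likelihood F-test, Benjamini-Hochberg adjusted over all genes tested, with a threshold of 0.05. SEs are the log2 fold change divided by the square root of F. CPM used TMM library sizes, and FPKM the deposited counts, listed lengths and library totals. The fit was tested on simulated data before use. Alternatives were DESeq2 1.42.0, its size factors, other filters, other sample sets, a replicate block, a fold minimum and omission of each library.

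The members, lists and tests were chosen with earlier results of these data known. Beyond the members, genes were named by rule: per list and comparison, the 2 called genes at each extreme, the 3 with the highest mean CPM, those with 0 reads, and the 2 genes nearest to each member in log2 CPM (prior count 2). Other genes are said to have been picked after their values were seen. Promoter windows came from RefSeq. Protein sequences and other assays were not used here. A gene near Pdgfd in pattern is not reported here.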

Additional observations from a re-analysis of the deposited data

How the results depend on the processing

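Of 402 values of the members' log2 fold changes under alternative processing, 396 kept their direction and side of the threshold and none reversed. The 5 that lost the call were all Pdgfa between PVASCs and Ab-ASCs, and the 1 that gained it was Mcam between Ab-ASCs and Sub-ASCs. For the other named genes, 1420 of 1434 values held and 14 lost the call, for Plat 9, Plau 3 and Sox10 2. With a log2 fold change of at least 1 required, 5328 genes were called for PVASCs against Sub-ASCs, 2551 for PVASCs against Ab-ASCs (1673 higher and 878 lower, against 4088 and 5308 without the minimum) and 6241 between Ab-ASCs and Sub-ASCs. The PDGF pathway list then gave 13, 9 and 17 in the same order, and between PVASCs and Ab-ASCs the members gave 5 and the wider pericyte list 6. These lower counts follow from the added minimum itself. With only the 2 groups compared in the fit, 8454 genes were called between PVASCs and Ab-ASCs, 4305 higher and 4149 lower.

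Leaving out each library in turn gave 13665 to 14419 genes called for any difference, 10954 to 12736 for PVASCs against Sub-ASCs, 8294 to 9675 against Ab-ASCs and 11976 to 12714 for Ab-ASCs against Sub-ASCs. The members gave 9 to 9 for the first 2 of these, and 8 to 9 for the others. The pathway list gave 46 to 52, 38 to 44 and 45 to 53, the wider pericyte list 15 to 18, 14 to 15 and 16 to 17, and the receptor log2 ratio spanned 2.52 to 2.56 between the highest and lowest group mean.

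Deviations of same-numbered libraries correlated at -0.0514 to 0.0951, so no pairing by replicate number was seen. With 3 libraries per group, these values cannot exclude a shared mouse or preparation. With the replicate block, 13814 genes were called for any difference, and 11458, 9183 and 12302 in the comparisons, with 9, 9, 9 and 8 members. The receptor ratio kept its span of 2.54 on the log2 scale and its exact permutation p was 0.0556, where the 216 assignments allow no less than 0.0278. Depth limits Rgs5 in Ab-ASCs, with 8 to 22 reads, and Cspg4 in Sub-ASCs, with 31 to 40 reads.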

Other observations

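Other marker lists also moved with the depots in which the members were measured, and their part in the members' levels was not tested. Interferon response genes numbered 12 of 12 with their highest level in Sub-ASCs, where Pdgfd, Pdgfra and Pdgfrb were highest, beside 28.7% of all genes, with a summed level of 2045 to 2139.7 CPM in Sub-ASCs, 113 to 122 CPM in Ab-ASCs and 115 to 119 CPM in PVASCs. Of 12 proliferation genes, 9 were higher in Ab-ASCs and 2 in PVASCs than in both other groups, beside 20.9% and 10.2% of all genes, with 148 to 155 CPM in Sub-ASCs, 1066 to 1125 CPM in Ab-ASCs and 978 to 990.4 CPM in PVASCs. The Sub-ASC libraries, which stood low for Pdgfa, Pdgfc and Cspg4, thus also stood low for cell cycle genes.

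Of 10 mesothelial genes, 7 were higher in Ab-ASCs and 3 in PVASCs than in both other groups, beside the same shares of all genes, summing to 8.03 to 9.19 CPM in Sub-ASCs, 129 to 138 CPM in Ab-ASCs and 59.9 to 61.2 CPM in PVASCs. Of 8 haematopoietic genes tested, 6 were higher in Sub-ASCs and 1 in Ab-ASCs than in both other groups, beside 28.7% and 20.9% of all genes. The sums were 271 to 276 CPM, 321 to 419.8 CPM and 307 to 318 CPM in Sub-ASCs, Ab-ASCs and PVASCs. Lyz2 made up much of each sum, at 160 to 164 CPM, 238 to 317 CPM and 246 to 252 CPM in that order.

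Exon overlap with other genes was small outside Pdgfa. Pdgfra shares 30 bases with Mir7025, which had 164 reads in all, 166 bases with Gm42803, which had 97 reads, and 456 bases with Gm42802, which had 0 reads. Mcam shares 17 bases with Gm10687 and Pdgfc 147 bases with Gm16000, which had 2 reads.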
